A study of Homo sapiens with 12 samples.

Results

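The 9 genes described here encode histones that are made outside DNA replication: the linker histones H1F0 and H1FX, the H2A variants H2AFX, H2AFZ, H2AFV, H2AFY and H2AFJ, and H3F3A and H3F3B, which both encode H3.3. They were chosen by symbol from the 26125 rows of an RNA sequencing table, with earlier results of these data known. All 9 have a row, and 8 of them were among the 12928 genes tested, which are those whose FPKM averaged 1 or more across the 12 libraries. FPKM counts fragments relative to transcript length and to the mapped fragments of a library, so levels of different genes can be compared per length. H3F3A was listed near 0 in each library and was not tested.

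The cells were Caco-2, a line from a human colon adenocarcinoma whose monolayers take on features of enterocytes. They were grown for 21 days in transwell chambers and then kept in a salt buffer with HEPES. Ochratoxin A (OTA), a mould toxin found in food, was given on the apical side at 15 µmol/L. The 4 groups of 3 libraries were no treatment (control), the bacterium Bacillus subtilis CW14 (CW14), OTA, and OTA with CW14 (combined). The time of exposure is not given in the sources used here, and all groups share 1 line, for which the labels name no genetic change. Whether replicates came from separate cultures is not stated. The p-values thus speak to the scatter of these libraries, which could be technical. In bulk RNA, fewer cells of a kind and less RNA per cell cannot be told apart.

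Most histone mRNA in dividing cells comes from clustered genes that are active in S phase, and these mRNAs end in a stem-loop instead of a poly(A) tail. The variant genes lie outside the clusters, are used throughout the cell cycle and in resting cells, and give polyadenylated mRNAs. Their proteins replace the S phase histones at chosen places: H3.3 and H2A.Z at active genes and promoters, macroH2A in silent chromatin, and H1.0 in linker DNA of differentiated cells. H2A.X is phosphorylated around DNA double-strand breaks, and its gene is known to give both stem-loop and polyadenylated mRNA.

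The stem-loop is shown because it sets H2AFX apart within the 9 genes by sequence. A hairpin of 16 bases was searched for in GENCODE v29 transcripts (GRCh38): it starts with GG, has a perfect stem of 6 base pairs and a loop of 4 bases that starts with TT. It was found in 1 of the 9 genes, H2AFX, where it ends 1044 bases before the end of a transcript of 1614 bases. It was found in 30 of 71 clustered histone genes (42.3%) and in 119 of 19669 protein-coding genes (0.605%). Some clustered gene models may lack the end of the transcript. Capitals mark the loop, and HIST2H3A and HIST1H2AC are clustered genes given for comparison. In their transcripts 1154 and 1114 bases follow the hairpin, so such a distance is not particular to H2AFX.

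H2AFX: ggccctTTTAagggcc

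HIST2H3A: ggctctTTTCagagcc

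HIST1H2AC: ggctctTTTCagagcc

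Upstream windows are shown for the 4 members that hold at least 3 CCAAT motifs, an element known from histone and cell cycle gene promoters. Windows are the 200 bases before a RefSeq start (GRCh38.p14). All 9 members matched a RefSeq gene and 8 had a window. CCAAT was searched on both strands, where the reverse reads ATTGG, and so was TATAAA. Of 35116 windows of this length, 28% held CCAAT, 2.18% held at least 3, and 8.59% held TATAAA. Capitals mark CCAAT on either strand and TATAAA. The windows lie at chr11:119095466-119095665 (minus strand) for H2AFX, chr17:75779780-75779979 (minus) for H3F3B, chr4:99950276-99950475 (minus) for H2AFZ and chr12:14774205-14774404 (plus) for H2AFJ.

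H2AFX: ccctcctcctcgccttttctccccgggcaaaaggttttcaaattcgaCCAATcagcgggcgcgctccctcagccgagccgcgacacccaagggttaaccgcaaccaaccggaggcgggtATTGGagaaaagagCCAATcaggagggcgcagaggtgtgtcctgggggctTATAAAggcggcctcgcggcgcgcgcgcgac

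H3F3B: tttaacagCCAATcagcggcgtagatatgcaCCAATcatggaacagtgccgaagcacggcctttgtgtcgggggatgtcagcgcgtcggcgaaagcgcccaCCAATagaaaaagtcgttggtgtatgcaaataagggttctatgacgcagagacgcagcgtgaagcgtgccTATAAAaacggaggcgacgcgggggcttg

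H2AFZ: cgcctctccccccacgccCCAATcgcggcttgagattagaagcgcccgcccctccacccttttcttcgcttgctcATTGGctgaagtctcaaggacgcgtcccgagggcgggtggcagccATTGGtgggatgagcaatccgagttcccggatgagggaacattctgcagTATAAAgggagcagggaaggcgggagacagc

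H2AFJ: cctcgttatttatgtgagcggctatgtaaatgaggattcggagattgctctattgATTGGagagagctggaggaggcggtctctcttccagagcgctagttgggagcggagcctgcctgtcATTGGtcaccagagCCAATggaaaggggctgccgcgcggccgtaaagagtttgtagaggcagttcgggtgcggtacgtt

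H2AFX, H3F3B and H2AFZ also hold TATAAA here, and H2AFJ does not. These letters describe the windows only. The values below show that the 4 genes did not move together.

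Before the results, 1 library has to be set apart. Combined replicate 3 had the highest residual SD on the log2 scale (0.588, against 0.305 to 0.424 in the others) and the lowest relative depth. Relative depth, read from the steps of low FPKM values, was 0.47 there and up to 1.6 in other libraries, taking control replicate 1 as 1. Its deviation from its group followed transcript GC content with rho = 0.462 over 12148 genes, against -0.431 to 0.235 in the others. The log2 differences of combined against OTA and against CW14 followed GC content too (rho = 0.45 and 0.394), while those of OTA and CW14 against control had rho = 0.037 and -0.034. Of the 13 enterocyte markers 10 passed the filter, with CDX1, SI and FABP2 near 0, and their sums, of which KRT8 was the largest part, spanned 3779 to 6241 FPKM with overlapping ranges in all 4 groups. Single markers did move: OTA against control called 1 of 10 higher (VIL1) and 2 lower (KRT20 and HNF4A), where 17.7% of all genes were called. Without combined replicate 3 the markers gave 3 higher and 3 lower, and 4376 of all genes were called in place of 2288. Of 8 markers of immune, stromal and endothelial cells 2 passed, their sums stayed between 3.336 and 7.057 FPKM, and PTPRC and COL1A2 were listed at 0 throughout.

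In control cells the mRNA levels per length ran over more than an order of magnitude. H1F0 was highest at 688 ± 47.6 FPKM (SD, n = 3). It was followed by H3F3B at 355 ± 3.17, H1FX at 316 ± 9.86, H2AFX at 223 ± 8.24, H2AFZ at 156 ± 14.9, H2AFY at 110 ± 2.04, H2AFV at 45.9 ± 0.719 and H2AFJ at 39.7 ± 1.15 FPKM. No 2 neighbours in this order overlapped over the 3 control libraries. The mean of H1F0 over all libraries stood at percentile 99.18 of the tested genes and that of H2AFJ at 83.46.

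**Figure D1:**
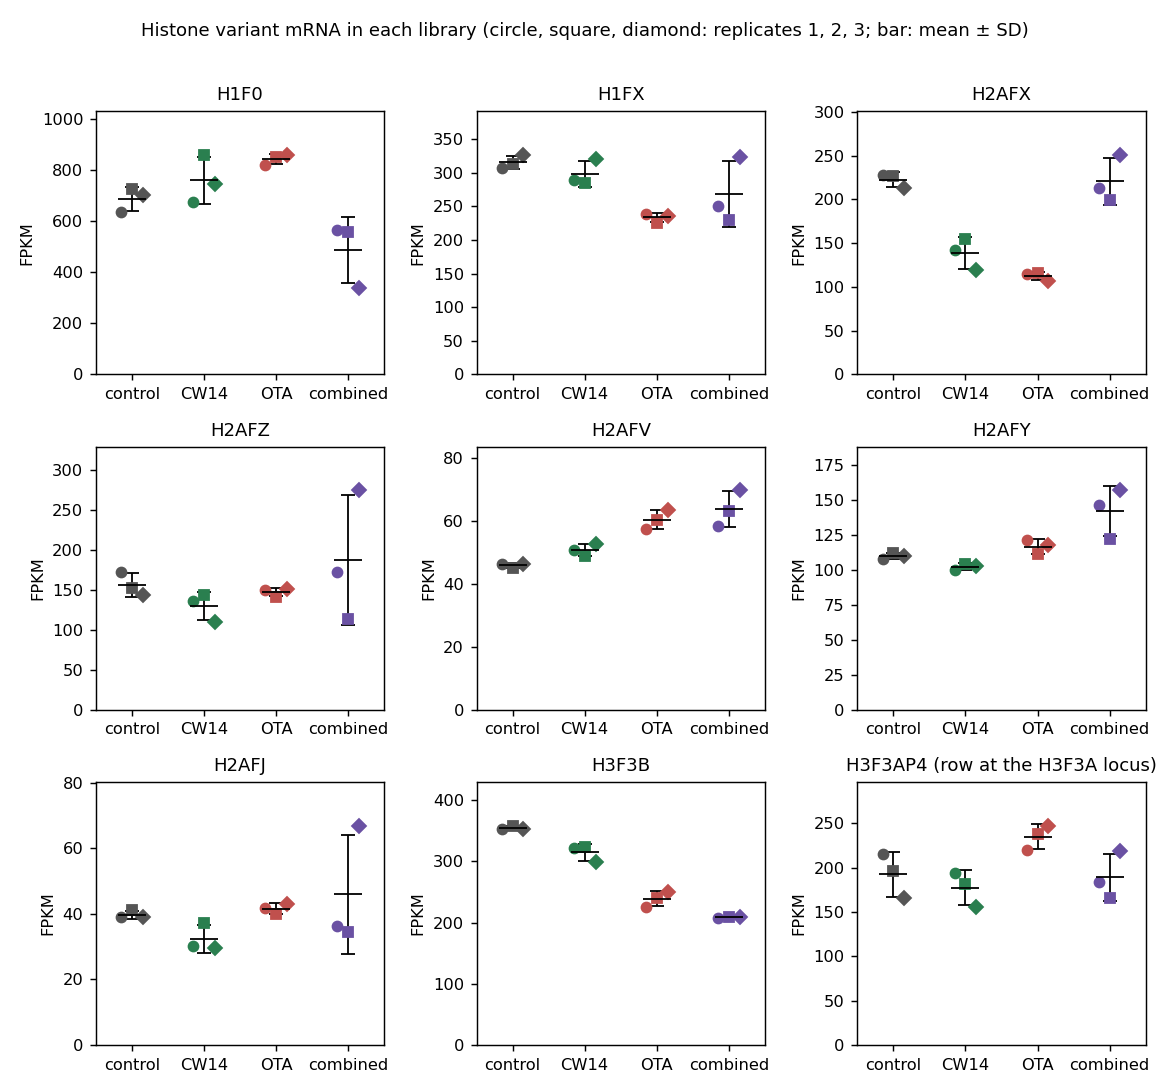
FPKM of 8 histone variant genes, and of the row that shares the H3F3A locus, in each of the 12 libraries; the marker shape gives the replicate and the bars the mean ± SD (n = 3). H2AFX is low in the CW14 and OTA libraries (107 to 155 FPKM) and high in control and combined libraries (199 to 251 FPKM), while H3F3B steps down from control to combined, and combined replicate 3 stands off in H1F0, H2AFJ and H2AFZ.

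H2AFX encodes H2A.X, the histone marked at DNA breaks (hg19 chr11:118964583-118966177). Its FPKM were 228, 227 and 213 in control, 142, 155 and 120 with CW14, 114, 116 and 107 with OTA, and 213, 199 and 251 in the combined group. Each agent alone thus went with low values that did not overlap the control, and the libraries with both agents spanned the control values. The mean with OTA was 0.505 times the control mean, and the combined mean was 1.96 times the OTA mean and 0.992 times the control mean.

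H2AFX fell with OTA by 0.98 on the log2(FPKM + 1) scale (SE 0.13, adjusted p = 0.000277, limma). It was higher in the combined group than with OTA alone by 0.96 (SE 0.13, adjusted p = 0.00249) and than with CW14 alone by 0.67 (SE 0.13, adjusted p = 0.00282). The difference of CW14 against control, -0.69 (95% interval -0.97 to -0.40), did not pass the threshold (adjusted p = 0.0515). In that comparison H2AFX ranked 48 of 12928 by p, where 47 genes were called. It passed without combined replicate 2 (adjusted p = 0.0439) and without combined replicate 3 (adjusted p = 0.00628). With any other library left out, or in a fit on the 2 compared groups alone, it did not pass. All libraries share 1 estimate of the spread in this fit.

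The interaction asks whether OTA acted alike with and without CW14. For H2AFX it was 1.65 on the log2 scale (SE 0.18, 95% interval 1.25 to 2.05, adjusted p = 0.00651), the smallest p of all 12928 genes and rank 175 by size. The difference of OTA libraries from those without OTA was -0.98 where CW14 was absent and 0.67 where it was present. In 22 alternative settings it ranked between 1 and 5 by p. With a correction of each library for GC content, chosen after seeing the data, it was 1.25 (adjusted p = 0.011, rank 21).

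H2AFX has a GC-rich transcript, 66.4% GC, at percentile 97.7 of the genes with a value. The 5% of genes richest in GC (at least 64.5%) had a median log2 difference of 0.385 in combined against OTA, 0.461 in combined against CW14 and 0.418 in the interaction. After the GC correction, H2AFX in combined against OTA was 0.59 (adjusted p = 0.014) and in combined against CW14 0.29 (adjusted p = 0.111), so the second call was lost. Without combined replicate 3 the 2 differences were 0.87 (adjusted p = 0.000912) and 0.57 (adjusted p = 0.00197), and the interaction was 1.55 (adjusted p = 0.0018). Fitted on the 2 compared groups alone, both calls narrowly missed the threshold (adjusted p = 0.0516 and 0.0519).

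H3F3B encodes H3.3 from chromosome 17 (hg19 chr17:73772513-73776016). Its FPKM were 353, 358 and 353 in control, 322, 324 and 299 with CW14, 226, 241 and 250 with OTA, and 207, 209 and 209 in the combined group. The groups did not overlap and formed a descending order of group means. The mean with OTA was 0.673 times the control mean.

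H3F3B fell by 0.57 with OTA against control (SE 0.10, adjusted p = 0.00205) and by 0.59 in combined against CW14 (SE 0.10, adjusted p = 0.00127). The call held in 24 of 24 alternatives in each, and in combined against CW14 the GC-corrected value was -0.36 (adjusted p = 0.0189). Its differences for CW14 against control (-0.17, adjusted p = 0.838) and combined against OTA (-0.19, adjusted p = 0.199) were not called. The interaction was -0.02 with a 95% interval of -0.33 to 0.29 (adjusted p = 0.941), so the interval leaves out an interaction of the size seen for H2AFX. Combined replicate 3 differed from the mean of the other 2 combined libraries by 0.009 on the log2 scale, the smallest gap of the tested members.

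H3F3A, the other H3.3 gene, was listed at 0.0048 to 0.00498 FPKM in all 12 libraries. It is the only row of the table whose 12 values all lie above 0 and below 0.01. The row of H3F3AP4, a name that GENCODE v29 gives to a processed pseudogene on chromosome 2, carries the same deposited locus as H3F3A (hg19 chr1:226250406-226259703). That row was singled out after its values were seen. Its FPKM were 216, 196 and 165 in control, 194, 182 and 155 with CW14, 220, 238 and 247 with OTA, and 183, 166 and 218 in the combined group. The 411 bases of the H3F3AP4 transcript are 100% identical to H3F3A transcripts and 78.6% identical to H3F3B, so fragments of H3F3A and H3F3AP4 cannot be told apart by sequence over that stretch. The OTA libraries lay above the control ones without overlap, but the difference of 0.29 was not called (adjusted p = 0.196). In combined against OTA it was -0.32 (adjusted p = 0.148), and -0.43 without combined replicate 3 (adjusted p = 0.0333).

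Within the sum of the 2 H3.3 rows, H3F3B made up 64.9% ± 3.05 in control, 64.1% ± 1.695 with CW14, 50.4% ± 0.211 with OTA and 52.6% ± 3.44 in the combined group (SD, n = 3). Its libraries with OTA, with or without CW14, lay at 48.95% to 55.8% and those without OTA at 62.05% to 68.1%. These are shares of FPKM, and the length used for the H3F3AP4 row is not given in the sources used here. No test was made of these shares.

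**Figure D2:**
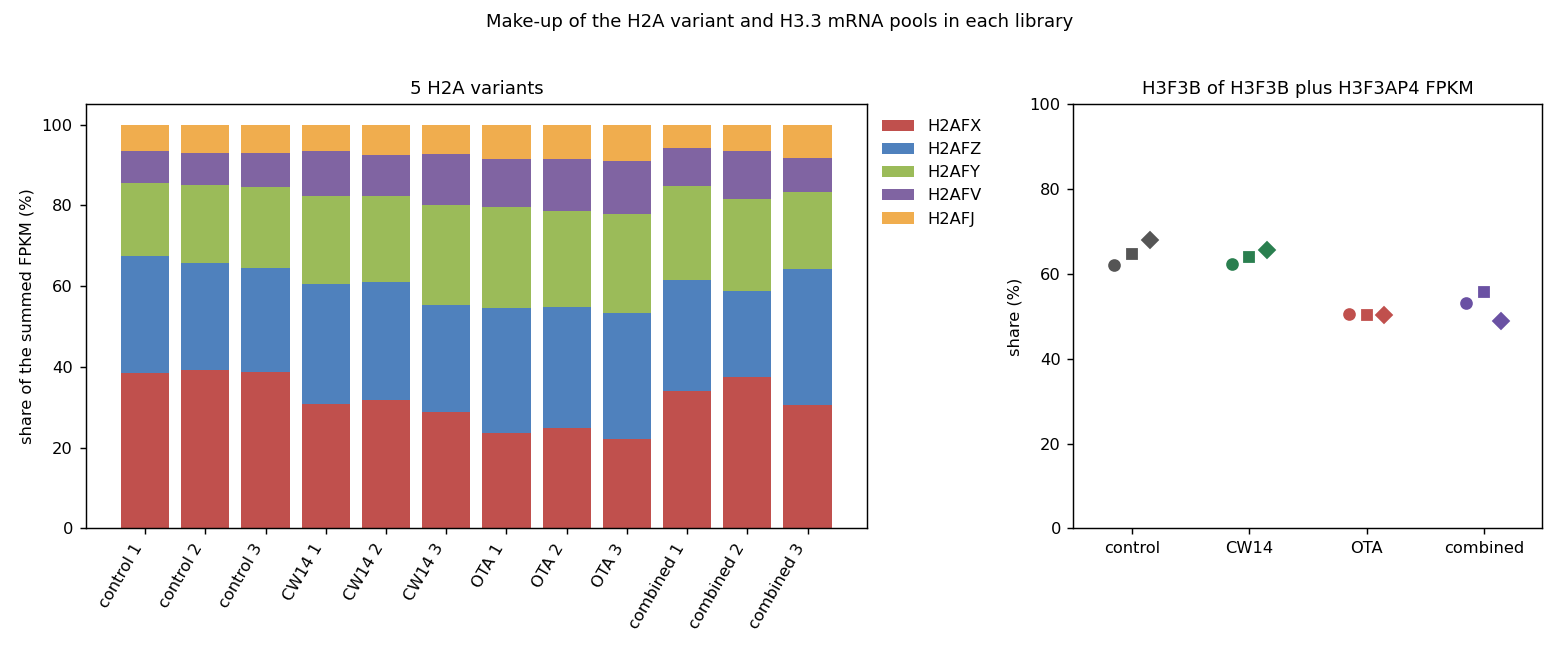
Left, share of each of 5 H2A variant genes in their summed FPKM, 1 bar per library; right, share of H3F3B in the FPKM of H3F3B plus the H3F3AP4 row, 1 point per library. H2AFX takes 38.4% to 39.3% of the H2A variant sum in control and 22.2% to 24.8% with OTA, and H3F3B takes a smaller share in every library with OTA than in any without.

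The 2 genes of H2A.Z, the variant placed at promoters and enhancers, gave different values. H2AFV, which encodes H2A.Z.2 (hg19 chr7:44866486-44887725), had 46.3, 45.1 and 46.3 FPKM in control, 50.9, 49.0 and 52.7 with CW14, 57.4, 60.5 and 63.5 with OTA, and 58.5, 63.1 and 69.8 in the combined group. Both groups with OTA lay above both groups without it, with no overlap. H2AFV rose with OTA by 0.39 (SE 0.11, adjusted p = 0.0283) and was higher in combined than CW14 by 0.32 (SE 0.11, adjusted p = 0.0422).

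Both H2AFV calls were near the threshold. Leaving out any 1 control or OTA library took the adjusted p of the first to between 0.0582 and 0.115. Leaving out any 1 control, CW14 or OTA library, or combined replicate 2, took that of the second to between 0.0516 and 0.113. Without combined replicate 3 the second was 0.25 (adjusted p = 0.0398), with GC correction 0.54 (adjusted p = 0.00716) and with array weights 0.19 (adjusted p = 0.00858).

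H2AFZ, which encodes H2A.Z.1 (hg19 chr4:100869242-100871512), had 173, 152 and 144 FPKM in control, 136, 144 and 109 with CW14, 150, 141 and 151 with OTA, and 172, 114 and 274 in the combined group. All groups overlapped, and the combined libraries spanned more than the other 3 groups together. None of its differences was called. Its 95% interval for OTA against control, -0.62 to 0.45, holds the value of H2AFV. Combined replicate 3 stood 0.967 above the mean of the other 2 combined libraries on the log2 scale.

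H2AFY encodes macroH2A1, which carries a large globular domain next to its histone part (hg19 chr5:134363422-134735577). It had 108, 112 and 110 FPKM in control, 100, 104 and 103 with CW14, 121, 111 and 118 with OTA, and 147, 122 and 157 in the combined group. The combined libraries lay above all the others. H2AFY was higher in combined than CW14 by 0.46 (SE 0.12, adjusted p = 0.011), and by 0.38 without combined replicate 3 (adjusted p = 0.00784). Against OTA the difference of 0.27 was not called (adjusted p = 0.12). The deposited H2AFY locus is shared with 4 other rows, C5orf66, C5orf66-AS1, C5orf66-AS2 and PITX1 (up to 115.5 FPKM), and whether counting used strand is not given in the sources used here.

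H2AFJ encodes H2A.J, a variant known to build up in ageing and senescent cells (hg19 chr12:14927268-14930936). It had 38.9, 41.0 and 39.1 FPKM in control, 30.2, 37.2 and 29.7 with CW14, 41.8, 39.9 and 43.1 with OTA, and 36.4, 34.4 and 66.9 in the combined group. The CW14 libraries lay below the control ones, but no difference of H2AFJ was called. Combined replicate 3 was 0.899 above the mean of the other 2 on the log2 scale.

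Over the 5 H2A variants together, the summed level was 575 ± 20.8 FPKM in control, 454 ± 37.8 with CW14, 478 ± 8.72 with OTA and 659 ± 146 in the combined group. The combined libraries had 627, 532 and 819 FPKM, replicate 3 being the highest, and the control ones 552.5 to 593.9 FPKM. H2AFX was the largest part of the sum in control, at 38.8% ± 0.465. Its share was 30.5% ± 1.46 with CW14, 23.5% ± 1.33 with OTA and 34.0% ± 3.38 in the combined group. H2AFZ had the larger mean share with OTA, 30.8% ± 0.622. The shares of H2AFX did not overlap between control, CW14 and OTA, while those of the combined group (30.6% to 37.4%) overlapped CW14 (28.9% to 31.7%).

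H1F0 encodes H1.0, the linker histone that builds up in differentiated, resting cells (hg19 chr22:38201112-38203443). It had 635, 727 and 702 FPKM in control, 675, 860 and 748 with CW14, 823, 854 and 860 with OTA, and 565, 558 and 337 in the combined group. Every combined library lay below every other library. H1F0 was lower in combined than with OTA (log2 difference -0.84, SE 0.19, adjusted p = 0.0141) and than with CW14 (-0.68, SE 0.19, adjusted p = 0.0169). OTA against control, at 0.30, was not called (adjusted p = 0.302), although the groups did not overlap.

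In combined against OTA, where H1F0 was lower, 4 of 10 enterocyte markers were called too, and 16% of all genes were. CDX2 (0.72, adjusted p = 0.0111) and HNF4A (0.48, adjusted p = 0.0156) were higher, EPCAM (-0.64, adjusted p = 0.00891) and CDH1 (-0.46, adjusted p = 0.0267) lower, and 8 of 10 had an unadjusted p under 0.05. The markers' median was -0.35, against 0.03 for all genes, and without combined replicate 3 there were 2 higher and 5 lower. In combined against CW14, where H1F0 was lower too, 1 of 10 markers was called, and 32.3% of all genes were. That marker was KRT20, as lower (-1.37, adjusted p = 0.000849). The markers' median there was -0.17, against 0.02 for all genes, and without combined replicate 3 there were 0 higher and 2 lower. The part of these shifts in the H1F0 differences was not tested.

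Combined replicate 3 widened both H1F0 differences. Without it they were -0.59 (adjusted p = 0.0039) and -0.43 (adjusted p = 0.00943). The call against OTA was lost without OTA replicate 2 or 3 (adjusted p = 0.0539 and 0.0521) and with quantile normalization (-0.46, adjusted p = 0.295), and that against CW14 without CW14 replicate 2 (adjusted p = 0.0688) and with quantile normalization (-0.64, adjusted p = 0.116). Both were also lost in fits on the 2 compared groups alone (adjusted p = 0.106 and 0.116). With array weights the latter difference was -0.37 (adjusted p = 0.000639). The interaction of H1F0 was -0.98 (95% interval -1.55 to -0.40) and missed the threshold (adjusted p = 0.0586). It passed without combined replicate 2 (adjusted p = 0.0275) and without combined replicate 3 (-0.73, adjusted p = 0.0112).

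H1FX encodes the linker histone H1X (hg19 chr3:129033612-129043412). It had 307, 314 and 326 FPKM in control, 289, 285 and 320 with CW14, 238, 226 and 236 with OTA, and 251, 230 and 324 in the combined group. The OTA libraries lay below the control and CW14 ones. H1FX fell with OTA by 0.43 (SE 0.13, adjusted p = 0.0414), a call lost in 14 of 24 alternatives. Leaving out any 1 control, CW14 or OTA library, or combined replicate 1, took the adjusted p to between 0.0514 and 0.135, and median-centring the libraries gave -0.33 (adjusted p = 0.104). The H1FX transcript has 68.6% GC, and with GC correction the OTA difference was -0.43 (adjusted p = 0.00986). In the F test its adjusted p was 0.07, and 0.000927 with GC correction. Combined against CW14 was -0.17 (adjusted p = 0.355), and -0.31 without combined replicate 3 (adjusted p = 0.0153).

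The 2 linker histones together summed to 1004 ± 53.6 FPKM in control, 1059 ± 91.2 with CW14, 1079 ± 17.0 with OTA and 755 ± 82.7 in the combined group. H1F0 made up 68.5% ± 1.25 of that in control and 78.4% ± 0.770 with OTA. In the combined group its share was 63.7% ± 11.03, with 50.98% in replicate 3.

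**Figure D3:**
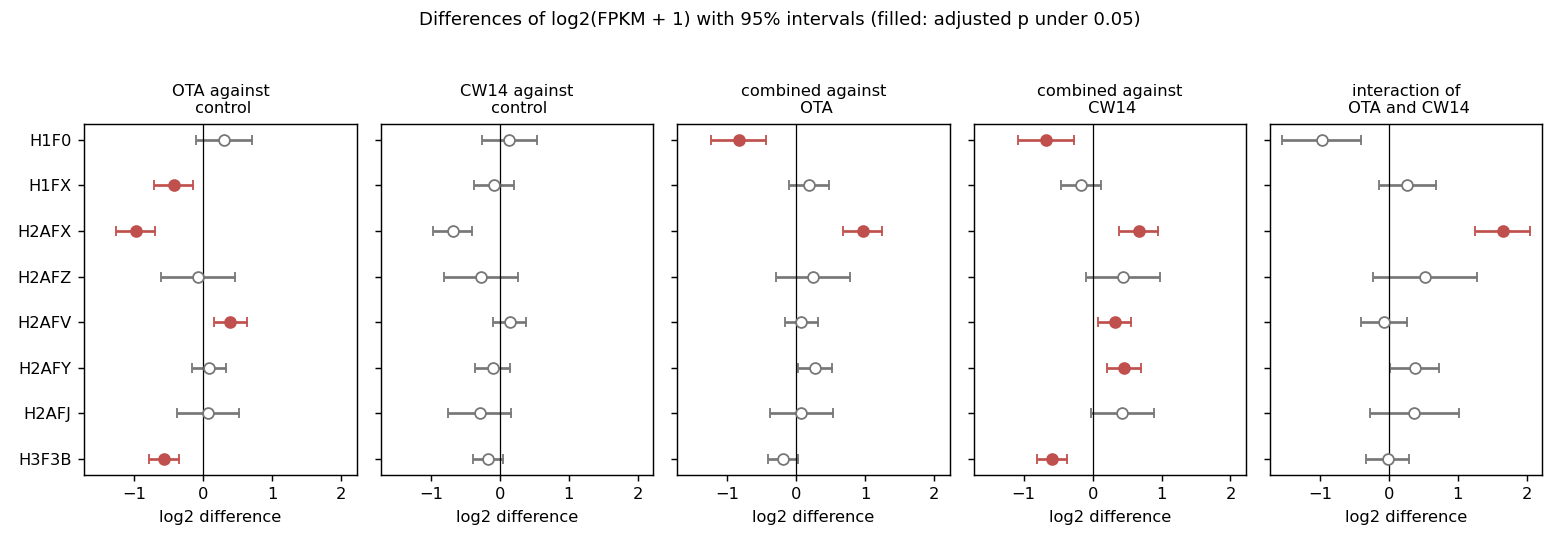
Log2 differences of 8 histone variant genes in 5 comparisons, with 95% intervals; filled points passed an adjusted p of 0.05. H2AFX is the only filled point in the interaction, at 1.65, and H3F3B and H1F0 are the filled points below 0 in combined against CW14.

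Counted over the 8 tested members, OTA against control called 1 higher (H2AFV) and 3 lower (H2AFX, H3F3B and H1FX), where 17.7% of all tested genes were called, 4.82% as higher and 12.9% as lower. Groups did not overlap in 5 of 8 members and in 50% of all genes. The members' median difference was -0.01 and that of all genes 0.03. A median near that of all genes stood beside single members that moved in opposite directions.

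CW14 against control called 0 of the 8 in limma, where 0.364% of all genes were called (0.217% as higher and 0.147% as lower), and 1 member (H2AFX) had an unadjusted p under 0.05. Groups did not overlap in 5 of 8 members and in 20.5% of all genes. Combined against OTA called H2AFX as higher and H1F0 as lower, where 16% of all genes were called (7.79% as higher and 8.22% as lower). Groups did not overlap there in 4 of 8 members and in 34.4% of all genes. Combined against CW14 called 3 as higher (H2AFX, H2AFY and H2AFV) and 2 as lower (H1F0 and H3F3B), where 32.3% of all genes were called (14.8% as higher and 17.5% as lower). Groups did not overlap in 5 of 8 members and in 41.8% of all genes. The interaction called 1 of 8 as higher, where 3.33% of all genes were called (1.85% as higher and 1.49% as lower). The members' medians were -0.14 for CW14 against control, 0.13 for combined against OTA, 0.38 for combined against CW14 and 0.32 for the interaction. Those of all genes were -0.02, 0.03, 0.02 and 0.04. Combined replicate 3 enters the medians that use the combined group, and medians without it were not taken. Its largest gaps above the mean of the other 2 combined libraries were in H2AFZ (0.967), H2AFJ (0.899) and H1FX (0.43). In H1F0 it lay below (-0.735). Without it, combined against OTA and the interaction each called 1 member higher and 1 lower, and combined against CW14 called 3 higher and 3 lower. An F test over the 4 groups called 5 of 8 (H2AFX, H3F3B, H1F0, H2AFV and H2AFY), where 37.5% of all genes were called. Each group enters more than 1 comparison, so the comparisons share libraries.

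For each member called in the F test, the 3 tested genes of most like pattern were taken by the root mean square difference of centred log2 values over 12 libraries, among 12829 genes. For H2AFX these were HNRNPAB (0.162), an RNA-binding protein gene, TUBB4B (0.185), a beta-tubulin gene, and MED19 (0.188), a Mediator subunit gene. TUBB4B had means of 473 FPKM in control, 369 with CW14, 315 with OTA and 503 in the combined group, and HNRNPAB had 129, 96.3, 80.2 and 138 FPKM. For H3F3B they were PNN (0.077), SNX9 (0.09) and GNAI3 (0.11). PNN, which encodes a protein of splicing speckles and desmosomes, had 162, 144, 115 and 100.2 FPKM in the same order. For H1F0 they were TNKS (0.083), GOLGA6L9 (0.094) and SAR1B (0.102), for H2AFV SF3B2 (0.083), TMEM245 (0.085) and SPIDR (0.089), and for H2AFY MRPL16 (0.063), DNAJC8 (0.073) and ACTN1 (0.079). The nearest gene to H2AFX was farther from it than the nearest gene to any of the other 4 members. This distance is not scaled, so it also depends on how large the differences of a gene are.

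Variant histones outside the 9 were mostly near 0. Of 10 listed, 9 had a row and 3 passed the filter. CENPA, the centromeric H3, fell with OTA from 24.4 ± 3.29 to 14.9 ± 1.74 FPKM (log2 difference -0.68, adjusted p = 0.0312; up to 0.121 and not called without control replicate 1 or 3 or OTA replicate 2 or 3), and was lower in combined (10.1 ± 2.47 FPKM) than CW14 (23.3 ± 4.83 FPKM; -1.14, adjusted p = 0.00132). H2AFY2 and H3F3C were not called in any comparison. HJURP, the chaperone that loads CENPA, fell with OTA too (-0.88, adjusted p = 0.00911) and was lower in combined than CW14 (-1.005, adjusted p = 0.00295).

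Of 10 chaperones of H3.3 or H3, 0 were called in OTA against control and 0 in CW14 against control (limma; 1 and 0 had an unadjusted p under 0.05). Of all genes, 17.7% and 0.364% were called in these 2 comparisons. HIRA, which places H3.3 at active genes, had the largest difference in both, from 6.89 FPKM in control to 4.67 with OTA (-0.47, adjusted p = 0.152) and 4.80 with CW14 (-0.44, adjusted p = 0.767). In combined against OTA, where 16% of all genes were called, 3 were higher: NASP (0.57, adjusted p = 0.0326), ASF1B (0.45, adjusted p = 0.0229) and DAXX (0.42, adjusted p = 0.027). In combined against CW14, where 32.3% of all genes were called, 4 were higher and 1, UBN2, was lower (-0.59, adjusted p = 0.0308). UBN2 lost that call without combined replicate 3 (-0.46, adjusted p = 0.0717), combined replicate 1 or CW14 replicate 2 or 3 (up to 0.105). CABIN1 (0.53, adjusted p = 0.0257), one of the 4, lost it without combined replicate 3 (0.41, adjusted p = 0.0558) or any 1 CW14 library (up to 0.0845). ASF1B, which hands H3 and H4 to the assembly factors, had means of 37.8 FPKM in control, 32.0 with CW14, 39.6 with OTA and 54.7 in the combined group. Its interaction (0.69, adjusted p = 0.0461) and that of DAXX, which places H3.3 at repeats (0.65, adjusted p = 0.0466), were called, as were those of 3.33% of all genes. The interactions of ASF1B and DAXX were called without combined replicate 3 (adjusted p = 0.0132 for ASF1B and 0.0121 for DAXX) and without combined replicate 2. They were lost with any other library left out (adjusted p up to 0.127 and 0.121). Leaving out any 1 OTA library, or combined replicate 1 for NASP and DAXX, also ended the 3 calls against OTA (adjusted p up to 0.108). With combined replicate 3 left out, the 10 gave 0 higher and 1 lower in OTA against control, and 3 higher and 1 lower in combined against OTA and against CW14 alike. The list's median was 0.20 in combined against OTA and -0.01 in OTA against control.

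Of 13 tested genes that place or remove H2A.Z, 2 fell with OTA, where 17.7% of all genes were called. The counts with OTA were 1 higher and 4 lower without combined replicate 3, and the interaction then called 2 higher in place of 1. INO80, the ATPase of a complex that removes H2A.Z, was 7.02 ± 0.661 FPKM in control and 2.28 ± 0.375 with OTA (log2 difference -1.30, adjusted p = 0.000577). SRCAP, the ATPase that places it, was 12.4 ± 0.358 and 5.67 ± 0.443 FPKM (-1.01, adjusted p = 0.00176). CW14 against control called 0 of 13 in limma, and 0 had an unadjusted p under 0.05. Combined against OTA called 3 higher and 1 lower, where 16% of all genes were called. The lower gene was the H2A.Z-removing chaperone ANP32E (-0.63, adjusted p = 0.0478). ANP32E kept that call with any 1 combined library left out, at -0.35 without combined replicate 3 (adjusted p = 0.0252), and lost it with any other (up to 0.138). RUVBL1, an ATPase shared by these complexes, was 7.13 FPKM in control, 5.36 with CW14, 7.76 with OTA and 16.8 in the combined group, and its interaction was called (1.36, adjusted p = 0.0367). The call held without combined replicate 3 (1.14, adjusted p = 0.0149) or 2, and was lost with any other library left out (adjusted p up to 0.0996). Combined against CW14 called 3 higher and 2 lower, where 32.3% of all genes were called. RUVBL1 was among the higher (1.45, adjusted p = 0.00047), and the 2 lower were KAT5 (-1.265, adjusted p = 0.0106) and INO80 (-0.99, adjusted p = 0.00252). The 13 genes had a median of -0.02 in OTA against control, 0.01 in combined against CW14 and 0.30 in the interaction.

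Of 11 tested genes of H2A.X damage signalling, 1 fell with OTA, where 17.7% of all genes were called. RNF168, a ubiquitin ligase of the break response, went from 17.0 ± 2.28 to 10.2 ± 1.24 FPKM (-0.69, adjusted p = 0.0141). That call was lost without control replicate 1 or 2 or OTA replicate 3 (adjusted p up to 0.0707). The 11 genes without combined replicate 3 gave 1 higher and 2 lower in OTA against control, 2 higher in combined against OTA and 1 higher in the interaction. CW14 against control called 0 of 11 in limma, and 1 had an unadjusted p under 0.05. Combined against OTA called 1 as higher, where 16% of all genes were called. That gene, BAZ1B, a kinase of H2A.X, was 15.5 ± 0.103 FPKM with OTA and 27.8 ± 7.99 in the combined group (0.76, adjusted p = 0.0185). It was 0.55 without combined replicate 3 (adjusted p = 0.0141) and not called with any 1 OTA library left out (up to 0.0627). The interaction also called 0 of 11 (1 at an unadjusted p under 0.05), and that of BAZ1B was 0.88 (adjusted p = 0.0736). Combined against CW14 called RNF168 alone, as lower (-0.79, adjusted p = 0.00445), where 32.3% of all genes were called. The 11 genes had a median of 0.17 in OTA against control, 0.01 in combined against OTA and 0.07 in the interaction.

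Among 14 genes of S phase and proliferation, TYMS, the gene of thymidylate synthase, rose with OTA (0.64, adjusted p = 0.0123). NPAT, the activator of clustered histone genes (-0.86, adjusted p = 0.00796), and the cyclin gene CCNE2 (-0.83, adjusted p = 0.0211) fell. Of all genes, 17.7% were called with OTA. NPAT kept its call with each library left out in turn. TYMS lost it without control replicate 1 or 3 or OTA replicate 3 (adjusted p up to 0.0567), and CCNE2 without control replicate 1 or 3 or OTA replicate 1 or 3 (up to 0.0871). Leaving out combined replicate 3 gave 1 higher and 4 lower of the 14 with OTA, and 3 higher in the interaction in place of 1. CW14 against control called 0 of 14 in limma, with 0 at an unadjusted p under 0.05. Combined against CW14 called 5 higher and 2 lower, where 32.3% of all genes were called. MCM3 was among the higher (1.26, adjusted p = 0.00059) and NPAT among the lower (-0.93, adjusted p = 0.00363). Combined against OTA called 4 higher and 2 lower, where 16% of all genes were called. The 2 lower were TOP2A (-0.49, adjusted p = 0.0251) and CCNA2 (-0.50, adjusted p = 0.0257). The 4 higher were MCM5, MCM3, MCM2 and PCNA, parts of the replication machinery. MCM3 (1.03) and MCM2 (0.93) kept this call with each library left out, at 0.80 and 0.79 without combined replicate 3. PCNA (0.72) was 0.52 and MCM5 (1.06) 0.64 without it (adjusted p = 0.072 and 0.0494), and both lost the call with any 1 OTA library and some others left out (up to 0.129 and 0.122). MCM3 was 19.7 FPKM in control, 16.2 with CW14, 19.2 with OTA and 41.3 in the combined group, and its interaction was 1.28 (adjusted p = 0.0319), which was 1.05 without combined replicate 3 (adjusted p = 0.00756) and lost without control replicate 2 or 3 or any 1 CW14 or OTA library (up to 0.0947).

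General histone chaperones gave 2 higher (RBBP7 and NAP1L1) and 1 lower (HJURP) of 12 with OTA, 0 with CW14, 2 higher (CHAF1A and SUPT6H) in combined against OTA, and 0 in the interaction (1 higher without combined replicate 3). Of all genes, 17.7%, 0.364%, 16% and 3.33% were called in the same order. Combined against CW14 called 4 higher and 1 lower (HJURP), where 32.3% of all genes were called. At an unadjusted p under 0.05, limma gave 0 of the 12 chaperones with CW14 and 3 in the interaction. RBBP7 (0.43) and NAP1L1 (0.41), carriers of H3-H4 and H2A-H2B, each kept the OTA call with 4 of 12 libraries left out in turn (adjusted p up to 0.145 and 0.148). CHAF1A, the large subunit of the replication-linked assembly factor, was 10.5 FPKM in control, 8.88 with CW14, 8.21 with OTA and 14.3 in the combined group. Its difference in combined against OTA (0.74, adjusted p = 0.0176) was lost without OTA replicate 2 or 3 (up to 0.0713), and its interaction of 0.97 was not called (adjusted p = 0.0519). SUPT6H (0.69) was 0.46 without combined replicate 3 (adjusted p = 0.0237) and not called with any 1 OTA library left out (up to 0.0972). Without combined replicate 3 the 12 chaperones gave 3 higher and 2 lower with OTA, and 2 higher and 2 lower in combined against OTA.

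**Figure D4:**
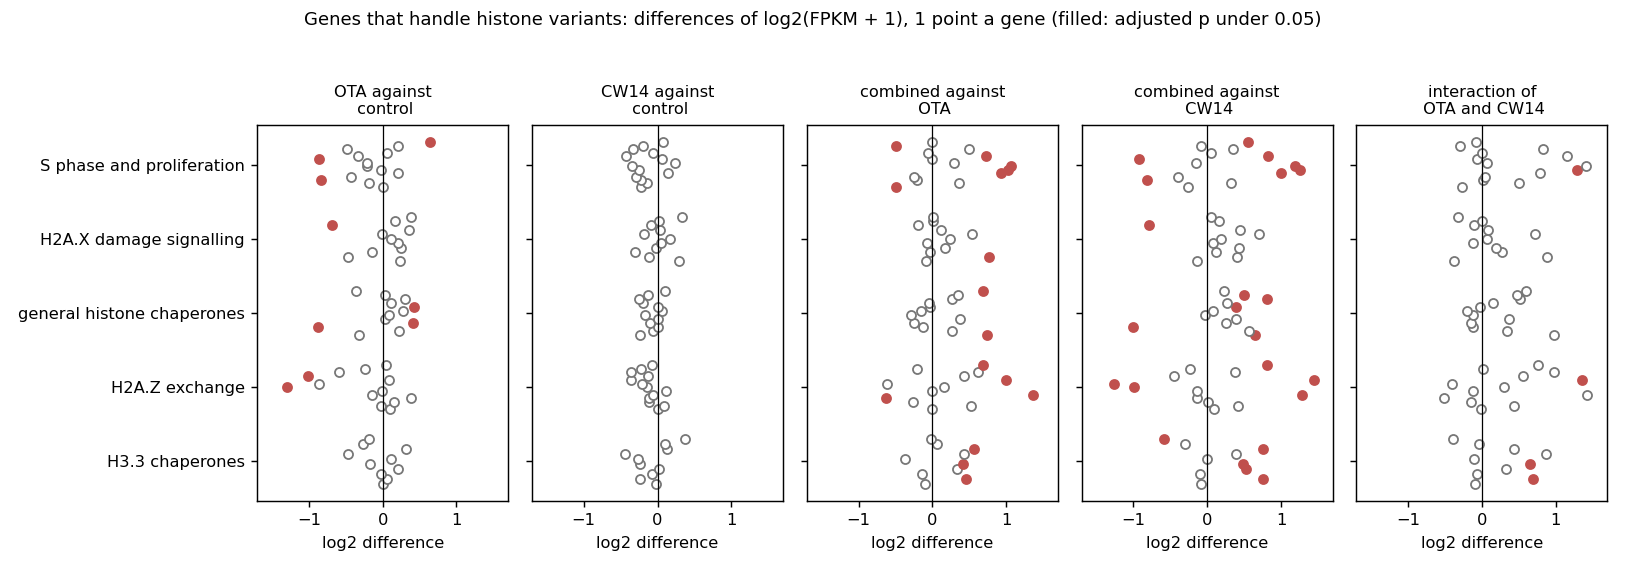
Log2 differences of genes of 5 lists in 5 comparisons, 1 point per gene; filled points passed an adjusted p of 0.05. CW14 against control has no filled point, and the filled points of the interaction (ASF1B, DAXX, RUVBL1 and MCM3) all lie above 0.

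The clustered S phase histone genes, of which 58 were tested, gave other values than the variants. OTA against control called 12 higher and 1 lower (4.82% and 12.9% of all genes), with a median difference of 0.695. CW14 against control called 0 higher and 1 lower (0.217% and 0.147% of all genes), with a median of -0.388 and 11 at an unadjusted p under 0.05. The lower gene, HIST1H2AH, went from 4.91 FPKM in control to 0 with CW14 (-2.49, adjusted p = 0.00866). That call was lost without control replicate 1 or CW14 replicate 3 (up to 0.0613). Combined against OTA called 0 higher and 9 lower (7.79% and 8.22% of all genes), with a median of -0.513. Combined against CW14 called 13 higher and 3 lower (14.8% and 17.5% of all genes), with a median of 0.457. The interaction called 0 in limma (10 at an unadjusted p under 0.05), with a median of -0.059. Without combined replicate 3, 57 were tested. OTA against control then called 19 higher and 2 lower, and combined against OTA 0 higher and 10 lower. Combined against CW14 called 15 higher and 2 lower, and the interaction 1 higher. HIST1H2AM, a clustered H2A gene, rose with OTA from 7.96 to 44.9 FPKM (2.38, adjusted p = 1.81e-05), where the H2A variant gene H2AFX fell. HIST2H3A, a clustered H3 gene whose hairpin is shown above, rose with OTA from 4.14 ± 4.22 to 21.2 ± 4.97 FPKM (2.43, adjusted p = 0.0113), where H3F3B fell. Its SD in control was thus as large as its mean. The call held with each library left out in turn, at 1.84 to 3.08 (adjusted p up to 0.0489). With CW14 alone HIST2H3A was 3.06 FPKM, and in the combined group 25.1 FPKM (2.79, adjusted p = 0.00356). Whether poly(A) selection was used is not given in the sources used here.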

How the data were processed

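RNA of 12 Caco-2 libraries was measured by RNA sequencing with 150-base read pairs and a NEBNext Ultra kit, per the labels' protocols. The authors deposited FPKM per gene and library, in 1 table. The submitters' processing notes list hg19 as build and, without roles, TopHat2 2.0.13, Cufflinks 2.2.1, Cuffdiff, Cuffnorm and cutadapt 1.10. Not given in the sources used here are the annotation, scaling between libraries and absolute depth, and FPKM keep no counts, so no counting interval is given. Whether deposited loci start at 0 or 1 is not stated.

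From these deposited values log2(FPKM + 1) was computed for genes that averaged 1 FPKM or more. Changes of low genes come out too small on this scale. A model of 4 group means was fitted to the 12 libraries by limma 3.58.1, run in R 4.3.3, using an intensity trend. Tests were two-sided, adjusted by Benjamini-Hochberg over 12928 genes, and called at an adjusted p under 0.05. All adjusted p-values in the text are from limma. The method was tested on simulated data for OTA against control, with independent noise per gene. It called 65% of 200 genes changed by 1 on the log2 scale, with 8 false calls. The simulated libraries held no GC or depth deviations such as those of combined replicate 3. Transcripts were aligned with blastn 2.17.0.

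The 9 genes and all lists were chosen with earlier results of these data known. All 9 are named. Of each list, up to 4 called genes with the largest log2 difference per comparison could be named, or up to 2 where none was called. TOP2A and CCNA2 were named in addition, as the 2 lower genes of their list in combined against OTA. For each member called in the F test, the 3 genes of most like profile are named. Alternatives were other pseudocounts, filters, scalings and spread models, the replicate block, each library left out, and, added after seeing the data, a lowess correction of each library for GC content. H1F0 had no upstream window in the table used. Proteins were not used here.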

Additional observations from a re-analysis of the deposited data

Results flagged for a closer look

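The OTA difference of H2AFX differed with and without CW14. The interaction, a test of that difference itself, was 1.65 on the log2(FPKM + 1) scale (adjusted p = 0.00651, limma). Without CW14 all 3 OTA libraries (107 to 116 FPKM) lay below all 3 controls (213 to 228 FPKM). With CW14 all 3 libraries with OTA (199 to 251 FPKM) lay above all 3 without it (120 to 155 FPKM). The value lay between 1.25 and 1.73 in 23 alternatives and was called in each of them.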

How the results depend on the processing

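No called difference of a member changed sign in any alternative run. Median-centring the libraries moved the median of all genes in OTA against control from 0.027 to 0.133 and the share of calls that were higher from 27.2% to 46.2%. With upper-quartile scaling that share was 42.7% and with quantile normalization 40.2%. In combined against OTA, median-centring moved it from 48.6% to 36.7%, and in the interaction from 55.5% to 39.5%. H2AFX, H3F3B and H2AFV kept their OTA calls under all 3 scalings. The cause of the changes below was not tested.

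The 8 tested members gave 4 calls in OTA against control, and 2 to 5 with 1 library left out. CW14 against control gave 0, 1 with upper-quartile scaling, 1 with array weights, and 0 to 1 with 1 library left out. Combined against OTA gave 2, 0 when only the compared groups were fitted, 6 with array weights, and 1 to 3 with 1 library left out. Combined against CW14 gave 5, 1 with only the compared groups, 8 with array weights, and 3 to 6 with 1 library left out. The interaction gave 1, 2 with a filter of 5 FPKM, 4 with array weights, 2 with GC correction, and 1 to 2 with 1 library left out. The F test gave 5, 8 with array weights, 6 with GC correction, and 3 to 7 with 1 library left out. Fitted on only the compared groups, the lost calls were those of H1F0 and H2AFX against OTA (adjusted p = 0.106 and 0.0516) and of H1F0, H2AFX, H2AFV and H2AFY against CW14 (0.116, 0.0519, 0.181 and 0.0969). The interaction and the F test were not run on only the compared groups, since they use all 4.

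Over all genes, combined against OTA gave 2070 calls, 70 with only the compared groups and 7703 with array weights, and 661 to 3377 with 1 library left out. OTA against control gave 2288, up to 5864, and 1299 to 4376 with 1 left out. The interaction gave 431, up to 5124, and 17 to 1582 with 1 left out. CW14 against control gave 47, between 25 and 333, and 4 to 130 with 1 left out. Combined against CW14 gave 4179, between 1521 and 7991.

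The groups share replicate numbers. Of 18 pairs with the same number, 1 had a correlation of deviations over 0.1 (range -0.15 to 0.154). None of the 12 libraries correlated best with their own number. The deviations were taken within each group and also followed GC content. This check thus cannot show whether libraries of the same number shared a culture or batch, which is not stated. With the replicate block the members' calls were 4, 0, 2, 4, 1 and 4 in the order above, H2AFV losing its call in combined against CW14 (adjusted p = 0.0564), and the interaction called 286 of all genes.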
